A study of Mus musculus with 6 samples.

Results

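To describe the immune cells of mouse ovarian tumors under fucosylation inhibition, the single-cell libraries labelled control and 2FF were compared cell class by cell class. Each library came from 1 mouse and was read by droplet 3′ RNA sequencing, in which every RNA molecule captured from a cell is counted once as a unique molecular identifier (UMI). Barcodes with at least 250 genes and at most 5% of UMIs from mitochondrial genes were kept, giving 9075 control cells and 9222 cells with 2FF, together 18297 of the 51633 cells of all 6 libraries. Cells were then put into 7 classes (T, NK, B, neutrophil, monocyte, macrophage and dendritic) by a gate that asks for at least 3 detected markers of a class and a lead over every other class. The gate placed 7509 control cells (82.7%) and 8064 cells with 2FF (87.4%). Genes that define a gate are no result of the comparison, and they are named as gate markers where they occur.

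Tumors were started by placing KPCA cells, an engineered mouse ovarian cancer line, into the ovarian bursa of 6 to 8-week-old female C57BL/6 mice, and were taken on day 30. In the 2FF group (labelled 2F-Peracetyl-Fucose) the tumor cells were exposed to the compound for 3 days before injection and the mouse then received it by gavage every 2 days. The control mouse received the solvent and a control rat antibody. Exposure of the tumor cells and exposure of the host therefore cannot be told apart. The other 4 libraries (2-deoxy-D-glucose, anti-PD-L1, and each inhibitor with anti-PD-L1, 1 mouse each) give the range of treated mice. GEO's labels call the tissue lymph node and the design text mentions naive young and aged mice, whereas the study's methods describe tumors. The lymph node stroma gate found 0 cells in each of the 6 libraries, but so did the endothelial gate. The gate for epithelial cells of the tumor held 0 control cells and 18 with 2FF. Most control cells were myeloid, while T cells were the largest class with 2FF (38.9%). Which tissue was sampled cannot be told from these counts.

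With 1 mouse per group no difference between treatments can be tested, and a difference between 2FF and control cannot be told apart from one between 2 mice, 2 tumors or 2 libraries. All intervals given here are 95% intervals, and they cover counting error only. The control library stood apart from the other 5 in most measures. Its share of cells lay outside the range of the other 4 libraries in 5 of the 7 classes, against 3 of 7 for 2FF. Values of 2FF and control are therefore set beside that range. Library totals were alike, at 73885214 UMIs for control and 72009925 for 2FF, and the medians per cell were 6196 and 6505.5 UMIs. The libraries shared 22 barcodes, or 0.242% of the smaller one.

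Fucose is a sugar that cells transfer from GDP-fucose onto N-glycans, O-glycans and some proteins. FUT8 adds core fucose to the base of N-glycans, a change that alters surface receptors such as the T cell receptor and PD-1, whereas FUT4, FUT7 and FUT9 build the Lewis structures that selectins bind on rolling leukocytes. 2FF is taken up as a fucose analog whose GDP form blocks fucosyltransferases, which lowers the fucose on newly made glycans. In tumors, IFN-γ released by T and NK cells acts on neighboring myeloid cells and raises guanylate-binding proteins, CXCR3 chemokines and antigen presentation genes, and low oxygen acts through HIF on glycolytic genes.

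The promoter windows show the short motifs linked with these programs, each holding 300 bases (250 before and 50 after the transcription start) from RefSeq on GRCm38.p6 and printed 5′ to 3′ on the gene's strand. They belong to a gene that was higher with 2FF in neutrophils (Gbp5, chr3:142496684-142496983, plus strand), one that was higher in monocytes (H2-Aa, chr17:34287774-34288073, minus strand) and one that was lower in neutrophils (Ldha, chr7:46845554-46845853, plus strand, 1 of 2 listed starts). Capitals mark TTCNNNGAA (the GAS letters, the gamma-activated sequence) and the ISRE letters bound by IRFs (GAAA, any 2 bases, GAAA) in Gbp5, ATTGG (the reverse of the CCAAT box) in H2-Aa, and ACGTG (the core of the HIF response element) in Ldha, each searched on both strands.
Gbp5: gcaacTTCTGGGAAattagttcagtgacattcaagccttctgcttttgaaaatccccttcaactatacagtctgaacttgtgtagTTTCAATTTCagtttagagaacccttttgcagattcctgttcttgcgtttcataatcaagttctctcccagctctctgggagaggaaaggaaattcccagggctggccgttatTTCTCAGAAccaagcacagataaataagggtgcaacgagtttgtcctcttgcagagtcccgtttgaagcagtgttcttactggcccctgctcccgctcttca
H2-Aa: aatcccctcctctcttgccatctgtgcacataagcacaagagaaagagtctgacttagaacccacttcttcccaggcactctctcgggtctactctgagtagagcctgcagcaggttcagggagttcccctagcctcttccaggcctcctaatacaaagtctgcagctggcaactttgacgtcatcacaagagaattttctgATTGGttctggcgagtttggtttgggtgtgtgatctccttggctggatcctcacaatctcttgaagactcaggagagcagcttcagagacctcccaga
Ldha: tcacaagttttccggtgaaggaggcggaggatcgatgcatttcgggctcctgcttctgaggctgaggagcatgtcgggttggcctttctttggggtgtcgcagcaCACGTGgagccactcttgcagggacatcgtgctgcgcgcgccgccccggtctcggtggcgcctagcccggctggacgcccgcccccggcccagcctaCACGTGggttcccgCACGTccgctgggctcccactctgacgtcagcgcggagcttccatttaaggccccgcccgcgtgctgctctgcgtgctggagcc

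The GAS letters were present in 8 of the 15 IFN-γ response genes with a promoter entry (53.3%) and in 9.55% of 27025 genes, and the ISRE letters in 10 of the 15 (66.7%) against 3.99%. The CCAAT letters were found in 7 of 8 MHC class II genes (87.5%) against 41.1% of all promoters. For ACGTG, the count was 15 of 21 glycolysis and hypoxia genes (71.4%) against 21.8%. These matches describe the windows and were not tested as binding sites.

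The most abundant class was the T cell with 2FF and the neutrophil in control. T cells made up 5.95% of classed cells in control (95% interval 5.43 to 6.51) and 38.9% with 2FF (37.9 to 40.0), a difference of 33.0 percentage points (31.8 to 34.2). Neutrophils, the short-lived granulocytes, were 41.4% in control (40.2 to 42.5) and 6.36% with 2FF (5.84 to 6.92), which is 6.50-fold lower. In the other 4 libraries T cells ranged from 29.5 to 44.0% and neutrophils from 3.64 to 5.36%. The 2FF value for T cells thus lay inside the range of the treated mice and that for neutrophils just above it.

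NK cells, the innate cytotoxic lymphocytes, were 0.346% in control (26 cells) and 2.23% with 2FF (180 cells), and 3.59 to 5.86% in the other libraries, so that 2FF was the lowest of the 5 treated mice. B cells were 1.20% in control (90 cells) and 4.29% with 2FF (346 cells), within the 1.99 to 5.85% of the others. Monocytes were 34.8% and 24.8%, both within the range of the others (21.2 to 36.2%). Macrophages were 12.6% in control and 19.5% with 2FF, a difference of 6.93 points (5.78 to 8.08), with the others between 13.5 and 18.6%. This difference turned to -0.637 points when neutrophils were left out of the denominator, so its direction rests on the neutrophil share. Dendritic cells, which carry antigen to T cells, were 3.73% and 3.89%, a difference of 0.165 points whose interval (-0.440 to 0.767) spans 0. Without neutrophils in the denominator the T cell difference was 31.4 points and the monocyte difference -32.9 points.

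**Figure D1:**
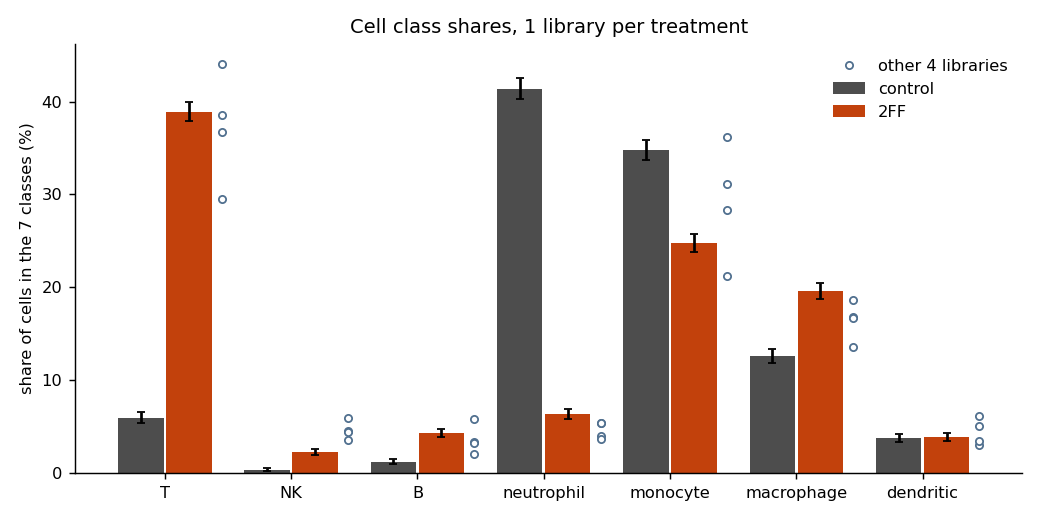
Share of the cells in the 7 classes (percent) in the control and 2FF libraries (bars, with exact 95% binomial intervals for counting error) and in each of the other 4 libraries (open circles). T cells reach 38.9% with 2FF against 5.95% in control, and neutrophils 6.36% against 41.4%, while the dendritic bars are nearly level.

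Within T cells the makeup differed as well. CD8 T cells, the cytotoxic subset, were 28.2% of T cells in control (24.1 to 32.6, 126 of 447) and 67.2% with 2FF (65.5 to 68.8, 2108 of 3139), above the 48.5 to 63.3% of the other libraries. Regulatory T cells, the Foxp3-expressing suppressive subset, were 19.9% in control (89 cells) and 4.46% with 2FF (140 cells), below the 7.95 to 14.0% of the others. For both subsets 2FF was therefore at the far end of the treated mice from control. Conventional CD4 T cells were 32.9% and 15.9%, and gamma-delta T cells 1.79% and 0.542%. A further 17.2% and 11.9% of T cells could not be resolved.

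CD8 T cells with 2FF held more transcripts of effector genes and fewer of naive and memory genes. Ifng, the IFN-γ gene, was at 184 CPM (UMIs summed over the class and scaled to a total of 1000000, 158 to 213) in control and 564 CPM (552 to 576) with 2FF, just above the others (424 to 555). Fold changes are stated as the log2 ratio of CPM + 5, and a gene counts as past 2-fold when this is at least 1 in size and the gene has at least 50 UMIs over both libraries. By this rule 6 of 18 measured activation and cytotoxicity genes were past 2-fold higher and 0 lower, where 2.02% of all 10770 genes measured in CD8 T cells were past 2-fold higher and 1.61% lower. The chemokine genes Ccl3 and Ccl4 were at 228 and 755 CPM in control and 658 and 2077 CPM with 2FF (log2 ratios 1.51 and 1.45). Perforin (Prf1), which forms pores in target cells, was at 314 and 665 CPM, above the 357 to 573 CPM of the others. Granzyme B (Gzmb), the protease it delivers, was at 475 and 909 CPM (log2 0.93) and was also highest in 2FF.

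Of the 12 measured naive and memory genes, 5 were past 2-fold lower with 2FF and 0 higher. The 5 include Ccr7, a marker of the dendritic gate, as the 6 activation genes include Gzma, a marker of the NK gate. Lef1 and Tcf7, transcription factors of naive and stem-like T cells, were at 272 and 76.8 CPM in control and at 78.9 and 29.8 CPM with 2FF. The survival gene Bcl2 was at 713 and 260 CPM. Lef1 and Bcl2 were lower with 2FF than in any of the 5 other libraries. These values come from 126 control cells, and the control intervals are correspondingly wide, as for Tcf7 (60.5 to 96.1 CPM).

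Inhibitory receptors were mostly level, with 2 of 11 measured genes past 2-fold. Lag3 was at 159 CPM in control and 367 CPM with 2FF, above the 223 to 278 CPM of the others, and Cd160 was at 46.5 and 102 CPM. Pdcd1, which encodes PD-1, was at 152 and 215 CPM (log2 0.49), inside the 166 to 258 CPM of the others. Tox, a transcription factor of exhausted T cells, was at 1279 and 1229 CPM (log2 -0.06), and Havcr2 at 256 and 276 CPM. Cd274, the PD-L1 gene, is described with the myeloid cells.

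Over T cells as a whole, 1.06% of 11776 measured genes were past 2-fold higher and 2.05% lower. The genes with the 5 largest log2 ratios on each side, after filters on detection and on possible free RNA (under 20% of the gene's level in another class of the library), were named in each class. The genes named for T cells were Gm26802, Ccl4, Slc17a6, Myo10 and Gm156 as higher and Frmd5, Ttn, Ccdc148, Dscam and Dscaml1 as lower. Ccl4 (chr11:83662584-83664683, gene coordinates being those of the mm10 annotation) was at 400 CPM in control and 1818 CPM with 2FF. Slc17a6, a glutamate transporter gene, was at 20.3 and 103 CPM and the myosin gene Myo10 at 56.6 and 254 CPM. Gm26802 rested on 2 control UMIs, and its ratio of 34.4 had a counting interval of 9.46 to 285. Frmd5 (chr2:121545529-121807087), a membrane scaffold gene, was at 351 CPM in control and 33.9 CPM with 2FF. It was at 2.02 and 1.97 CPM in CD8 T cells and at 1078 and 467 CPM in regulatory T cells, while regulatory T cells were 19.9% and 4.46% of T cells. The adhesion gene Dscam and the titin gene Ttn were lower in conventional CD4 T cells too (472 to 97.8 CPM and 167 to 46.4 CPM).

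Ifng was also higher with 2FF in conventional CD4 T cells (168 and 567 CPM, log2 1.73). After thinning every cell to 1000 UMIs, 10.4% of control T cells and 31.0% of T cells with 2FF held an Ifng UMI, against 32.8% and 66.9% before thinning. In neutrophils, which should lack the transcript, the thinned shares were 0.123% and 1.01%. The part of free RNA in the T cell shares was not tested. Of 20 measured IFN-γ response genes in T cells, 2 were past 2-fold higher and 2 lower (median log2 ratio 0.02, all genes -0.01), and of 24 type I interferon genes 0 were past 2-fold. Heat shock genes were past 2-fold lower for 3 of 12, and cell cycle genes for 0 of 20. The heat shock list summed to 5256 CPM in control and 4775 CPM with 2FF, above the other libraries (3999 to 4624). MHC class II transcripts in CD8 T cells were past 2-fold higher for 8 of 10 measured genes. H2-Aa was at only 40.4 and 318 CPM there, against 4424 and 5539 CPM in the dendritic cells of the same libraries. Over all T cells the median of this list (0.70) kept its sign in 8 of 9 alternatives. Cells with at least 2 markers of a class other than T or NK made up 28.9% of control T cells and 23% of T cells with 2FF. S100a8 and S100a9, the leading neutrophil transcripts, summed to 867 CPM in control T cells and 36.4 CPM with 2FF. Markers of NK cells and macrophages summed to 170 and 143 CPM in control and 592 and 338 CPM with 2FF, and the part of these in the T cell values was not tested.

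**Figure D2:**
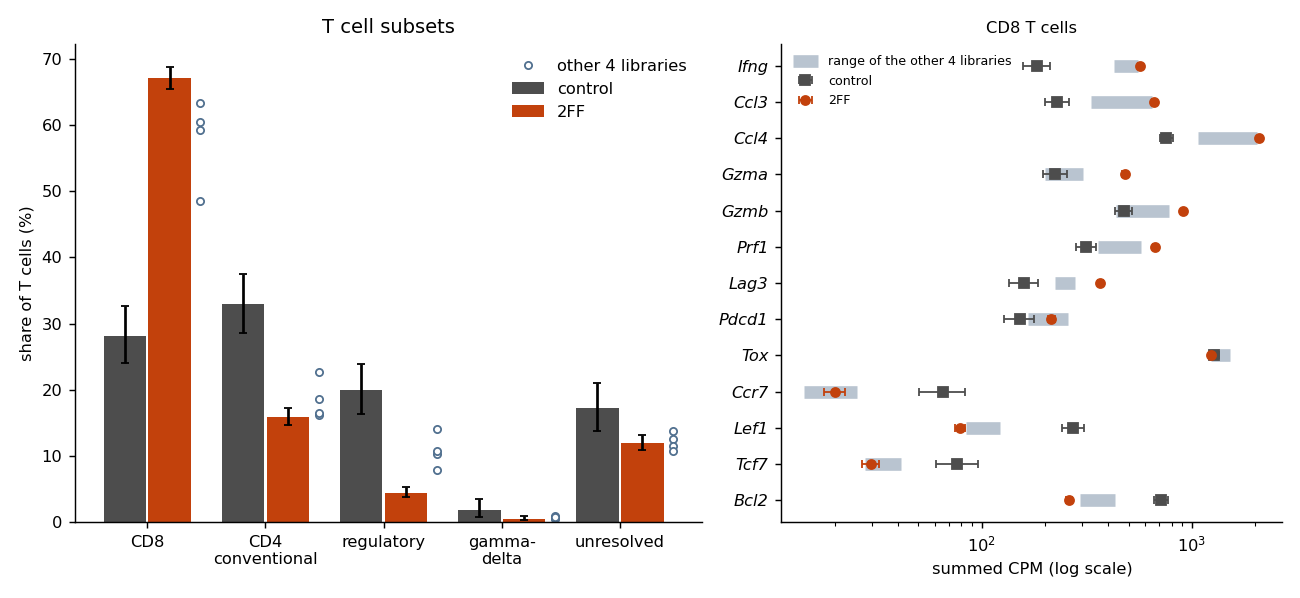
Left, share of T cells in each subset (percent) in control and 2FF (bars with exact 95% binomial intervals) and the other 4 libraries (open circles). Right, summed CPM (log axis) of 13 genes in CD8 T cells for control (squares) and 2FF (circles) with exact Poisson intervals and the range of the other 4 libraries (gray bars); Gzma and Ccr7 also serve as gate markers. CD8 T cells are 67.2% of T cells with 2FF, and Ifng, Ccl4 and Prf1 lie right of control while Lef1, Tcf7 and Bcl2 lie left of it.

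NK cells were few in control, and their 26 cells held 173770 UMIs against 1092414 UMIs in the 180 cells with 2FF. Of 4214 measured genes, 7.17% were past 2-fold higher with 2FF and 2.21% lower. The UMI minimum is over both libraries. A gene seen only with 2FF therefore reaches it at a lower CPM than one seen only in control. The higher and lower shares cannot be compared directly, and genes with few control UMIs weigh in both. Ifng was at 270 CPM in control (199 to 360) and 239 CPM with 2FF (211 to 270), so that the intervals overlapped; whether this differs from T cells was not tested. Gzmb (granzyme B) and Prf1 (perforin) were at 2544 and 1404 CPM in control and 3358 and 1802 CPM with 2FF. The chemokine genes Ccl4 and Ccl3 were at 650 and 167 CPM in control and 2627 and 557 CPM with 2FF. Ccl3, Ccl4 and the IL-2 receptor gene Il2ra were the 3 of 15 measured activation and cytotoxicity genes past 2-fold, all higher.

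NK maturation genes differed little, with 2 of 17 past 2-fold higher (median log2 0.04, as for all genes). These were Itga1, the CD49a integrin of tissue-resident cells, at 57.5 and 168 CPM, and Tnfsf10, the death ligand TRAIL, at 11.5 and 44.9 CPM. Both reached the UMI minimum mainly through the 2FF library. Tbx21, the T-bet transcription factor gene, was at 570 CPM in control and 348 CPM with 2FF (log2 -0.70). Proliferation genes led the higher side, but they reached the UMI minimum mainly through the 2FF library. Mki67, a marker of cycling cells, was at 17.3 and 175 CPM on 3 control UMIs. Only 8 of the 20 listed cell cycle genes were measured, and 4 of these were past 2-fold higher. Hist1h1b, a linker histone gene, had 2 control UMIs and a ratio of 23.5 (counting interval 6.46 to 195). Klra1, Pclaf, Ube2c and Hist1h2ab had 0 control UMIs, and were 4.08, 3.92, 3.34 and 3.08-fold higher against a floor of 3 counts per library. The lower limits of their counting intervals were 3.24, 3.11, 2.64 and 2.42. These intervals treat each UMI as independent, but the UMIs with 2FF came from only 21, 11, 12 and 12 cells. The spread between cells is not covered, so the limits are too narrow for such genes. On the lower side stood Dnajb1 (288 and 81.5 CPM) and Hspa1b (426 and 142 CPM), both chaperones induced by heat shock, with E130307A14Rik, Pik3c2a and Tdrd3. Of 10 heat shock genes 4 were past 2-fold lower. That list summed to 5726 CPM in control and 4953 CPM with 2FF, above the other libraries (3669 to 3998). Of 11 listed MHC class II genes 6 were measured, and 5 of these were past 2-fold higher. The list summed to only 167 CPM in control against 1521 CPM with 2FF. The measured genes thus reached the UMI minimum mainly through the 2FF library, which favors higher values. Cd74 was at 23 and 519 CPM, far below the 10953 and 11895 CPM of dendritic cells. Cells with at least 2 markers of a class other than T or NK were 11.5% of control NK cells and 22.8% with 2FF. Neutrophil and macrophage markers each summed to 46.0 CPM in control NK cells and to 171 and 159 CPM with 2FF, and the part of these in these values was not tested.

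In B cells, many IFN-γ response and MHC class I genes were higher with 2FF, and 4 of 11 measured heat shock genes were past 2-fold lower (median log2 -0.90). Summed over the heat shock list, control was at 7558 CPM and 2FF at 4028 CPM, above the other libraries (3143 to 3809). IFN-γ response genes were past 2-fold higher for 11 of 18 measured and lower for 0 (median log2 1.44), where 6.25% of all 6524 genes were past 2-fold higher and 2.25% lower. B cells held 486933 UMIs in control and 2332935 with 2FF, so the UMI minimum was easier to reach for genes high with 2FF. Irf1, a transcription factor of the IFN-γ response, was at 80.1 CPM in control (57.0 to 109) and 383 CPM with 2FF (358 to 409). The 2FF value lay within those of the other libraries (340 to 462 CPM). The proteasome subunit Psmb9, which cuts peptides for MHC class I, was at 51.3 and 227 CPM, above the others (109 to 134). MHC class I genes were past 2-fold higher for 7 of 17, whereas MHC class II genes, which B cells use at rest, were past 2-fold for 0 of 11 (median 0.34). The count of 11 IFN-γ response genes was 4 with at least 200 UMIs, 4 after thinning, 7 as a mean over cells and 6 without mixed cells. The higher UMI minimum and thinning also leave fewer genes measured. Over all B cell genes the count past 2-fold higher was 408, and 114 and 166 under these settings. The part of this loss in the list counts was not tested.

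Chaperones of the endoplasmic reticulum were also higher, with 6 of 18 measured ER stress genes past 2-fold. Manf and Hsp90b1, secretory chaperones, were at 76.0 and 261 CPM in control and 268 and 661 CPM with 2FF, above the others (76.5 to 144 and 287 to 497 CPM). The stress genes Ddit3 (41.1 and 20.6 CPM) and Atf4 (168 and 134 CPM) were not among them. Plasma cell markers within the B cell class summed to 417 CPM in control and 1340 CPM with 2FF (351 to 1464 in the others), with 4 of 5 higher, and their part in these values was not tested. Cycling genes were near 0 in control, where Top2a and Mki67 had 2 UMIs each, with ratios of 19.3 (5.27 to 161) and 18.5 (5.04 to 154). Pclaf and Hist1h3c had 0 control UMIs and were 6.89 and 5.57-fold higher against the floor of 3 counts (lower limits of the counting intervals 5.50 and 4.42). Both reached the UMI minimum through 2FF alone, with UMIs from 11 and 12 cells, and the spread between cells is not covered. Coa3, a respiratory chain assembly factor, had 1 control UMI. Hspa1b (chr17:34956436-34959238), an inducible HSP70 gene with a near-identical copy, Hspa1a, was at 1218 CPM in control (1122 to 1320) and 96.9 CPM with 2FF (84.7 to 110). Ero1l, an ER oxidase induced by hypoxia, was at 388 and 30.4 CPM. Glycolysis and hypoxia genes were past 2-fold lower for 7 of 22, but their median of -0.29 kept its sign in only 7 of 9 alternatives. Agbl1 and Inhba were lower as well, but the control values came from 7 and 6 cells. Of 16 measured B cell activation state genes, 0 were past 2-fold higher and 1 lower (median log2 -0.28), counts near the shares over all genes. Markers of other cells differed in both directions. In control B cells S100a8 and S100a9 summed to 797 CPM (81.9 with 2FF), erythroid markers to 3684 CPM (1451 with 2FF) and mixed cells made up 31.1% (21.4% with 2FF). With 2FF, markers of T cells summed to 149 CPM (24.6 in control), of NK cells to 113 CPM (0 in control) and of macrophages to 454 CPM (162 in control). The part of any of these in the B cell values was not tested.

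Neutrophils showed the highest count of IFN-γ response genes among the 7 classes. Of 20 measured genes of this list, 18 were past 2-fold higher with 2FF and 1 lower (median log2 2.20), against 6.49% higher and 4.5% lower over 9805 genes with a median of 0.20. Gbp5 (chr3:142493978-142522344), a guanylate-binding protein of intracellular defense whose promoter is printed here, was at 42.7 CPM in control (39.7 to 45.9) and 493 CPM with 2FF (461 to 526). This was 11.5-fold higher, and the 4 other libraries lay in between, at 190 to 437 CPM. Ly6a and Ly6i, surface proteins of the Ly6 family, were at 31.4 and 12.9 CPM in control and 355 and 156 CPM with 2FF. Gbp4 was at 5.22 and 72.7 CPM and Clic5, a chloride channel gene, at 0.393 and 33.6 CPM. Clic5 rested on 7 control UMIs, and its ratio of 85.5 had a counting interval of 39.1 to 222. Nos2, the nitric oxide synthase gene, was the list member past 2-fold lower, at 207 CPM in control and 65.0 CPM with 2FF. Control was outside the range of the other 4 libraries for 19 of the 20 genes, and 2FF for 13.

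Antigen presentation genes followed the same order. MHC class I genes were past 2-fold higher for 16 of 17 (median 1.56), with H2-K1, a heavy chain, at 411 and 1260 CPM, the immunoproteasome subunit Psmb8 at 96.1 and 515 CPM and the peptide transporter Tap1 at 74.1 and 228 CPM. MHC class II genes were past 2-fold higher for 8 of 11, at low levels. Summed over the list they were at 1371 CPM in control and 4530 CPM with 2FF, against 14587 and 28108 CPM in macrophages. The part of free RNA in these values was not tested. The share of neutrophils with an H2-Aa UMI was 4.51% in control and 12.0% with 2FF after thinning to 1000 UMIs (11.1% and 21.3% before), below the 14.8% and 50.3% of monocytes. Type I interferon genes were past 2-fold higher for 13 of 24, such as Isg15, a ubiquitin-like protein, at 424 and 999 CPM. Cd274, which encodes the checkpoint ligand PD-L1, was at 1189 CPM in control (1173 to 1205) and 1879 CPM with 2FF (1816 to 1943), a log2 ratio of 0.66, inside the 1081 to 2182 CPM of the others. Markers of T cells summed to 21.5 CPM in control neutrophils and 110 CPM with 2FF, with 8 of 8 markers higher, and their part was not tested.

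Genes of glycolysis and the hypoxia response were lower in neutrophils with 2FF. Of 23 measured, 13 were past 2-fold lower and 0 higher (median -1.06). Ero1l (chr14:45283087-45318771) was at 1525 CPM in control (1507 to 1543) and 171 CPM with 2FF (152 to 191), 8.94-fold lower and below the others (233 to 549). Ldha, lactate dehydrogenase A, was at 840 and 243 CPM, and the glucose transporter gene Slc2a1 at 737 and 285 CPM. The HIF targets Bnip3, Egln3 and Vegfa were at 425, 856 and 226 CPM in control and 84.8, 259 and 80.4 CPM with 2FF. Gapdh was not past 2-fold (1268 and 967 CPM, log2 -0.39), nor was Pgk1 (454 and 293 CPM). The 5 largest negative ratios outside the gate belonged to Slc24a3, an ion exchanger (138 and 9.91 CPM), Ero1l, Gpsm1 (67.2 and 3.85 CPM), the prostaglandin D synthase Hpgds (46.9 and 2.20 CPM) and Rhov (123 and 13.2 CPM). Their 2FF values rested on 18, 310, 7, 4 and 24 UMIs in this order. For Hpgds the 21.3-fold lower value had a counting interval of 8.28 to 78.3.

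Tumor neutrophil genes moved in both directions, with 3 of 21 past 2-fold higher and 4 lower. Higher were Icam1, an adhesion molecule of activated cells (64.5 and 314 CPM), Tnf (83.2 and 280 CPM) and Siglecf (6.23 and 24.2 CPM). Lower were Vegfa, Hmox1 (533 and 148 CPM), Spp1 (875 and 248 CPM) and the lipid droplet gene Hilpda (1556 and 224 CPM). Granule genes were also mixed, with 4 of 20 higher and 5 lower. The secondary granule genes Camp and Ngp were at 248 and 439 CPM in control and 1246 and 1645 CPM with 2FF, but at most 6.44% of neutrophils held either in each library, and the others were at 2783 to 3673 and 2938 to 4478 CPM. S100a8, the calprotectin subunit, was at 19010 and 10444 CPM, so that 2FF lay below all 5 other libraries. Median UMIs per neutrophil were 3948.5 in control and 2576 with 2FF. Of the gate markers, Retnlg was detected in 71.2% and 29.0% of neutrophils, and Mmp8 in 41.7% and 11.5%; what part such differences in makeup have in the values was not tested.

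Monocytes gave a similar picture for interferon genes. IFN-γ response genes were past 2-fold higher for 15 of 20 and lower for 0 (median 1.58), where 3.42% of 11551 genes were higher and 2.48% lower. Cxcl10 and Cxcl9, chemokines that draw CXCR3-bearing T cells, were at 160 and 97.4 CPM in control and 714 and 408 CPM with 2FF. Both lay within the others (390 to 881 and 271 to 645 CPM). Irf1 was at 126 and 496 CPM. Type I interferon genes were past 2-fold higher for 16 of 25, and MHC class I genes for 9 of 17. Control was outside the other 4 libraries for 20 of 20 IFN-γ response genes, 2FF for 5.

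MHC class II genes, which present antigen to CD4 T cells, were higher in monocytes, with 7 of 11 past 2-fold higher (median 1.88). H2-Aa, an MHC class II alpha chain (chr17:34282744-34287823), was at 316 CPM in control (309 to 323) and 1748 CPM with 2FF (1726 to 1769), above the others (986 to 1513). The invariant chain Cd74 was at 1169 and 4808 CPM, and Ciita, the class II transactivator, at 24.4 and 137 CPM. After thinning, 14.8% of control monocytes and 50.3% with 2FF held an H2-Aa UMI. Further genes among the 5 largest positive ratios were Calhm6, a channel gene (13.9 and 98 CPM), and Iigp1, an immunity-related GTPase (20.7 and 135 CPM). Alternatives added after the values were seen, with monocytes split by Ly6c2 and Ace, gave 6 MHC class II genes in cells with Ly6c2 alone, 6 in cells with Ace alone and 8 in cells with neither. For IFN-γ response genes these counts were 15, 13 and 16. The share of all genes past 2-fold was not computed within these subsets. Their counts therefore have no background beside them and cannot be compared between subsets.

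Inflammatory cytokine genes were lower in monocytes, with 11 of 23 past 2-fold lower and 2 higher (median -0.79). Cxcl3 (chr5:90786103-90789600), a neutrophil-attracting chemokine, was at 1042 CPM in control (1030 to 1055) and 36.2 CPM with 2FF (33.2 to 39.4). It was 28.8-fold lower, inside the 20.4 to 120 CPM of the others. Cxcl1 and Cxcl2, which bind the same receptor, were at 94.4 and 5379 CPM in control and 16.4 and 1482 CPM with 2FF. Il6 was at 115 and 17.6 CPM, Ptgs2 (cyclooxygenase 2) at 661 and 146 CPM and the monocyte chemoattractant Ccl2 at 1211 and 428 CPM. Il1b was not lower, at 876 and 1331 CPM (log2 0.60). With monocytes split by subset the lower count was 10, 15 and 11, again without a share over all genes of the subset.

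Tumor macrophage genes were past 2-fold lower for 9 of 23 and higher for 2. Summed over the list, control was at 16544 CPM and 2FF at 8221 CPM, above the other libraries (5977 to 8098). Spp1, osteopontin, was at 3829 CPM in control (3805 to 3853) and 525 CPM with 2FF (513 to 536), and Arg1, arginase 1, at 5280 and 2301 CPM. Mmp12, a metalloelastase, was at 158 and 12.1 CPM, below the others (25.1 to 80.1). Nt5e, the CD73 enzyme that makes adenosine, was at 278 and 32.6 CPM, and the metallothionein gene Mt2 at 558 and 51.7 CPM. Fabp5, a fatty acid carrier, was higher (296 and 1210 CPM). The other higher gene was the mannose receptor Mrc1 (110 and 369 CPM), a marker of the macrophage gate, whose level in monocytes the gate limits. Glycolysis and hypoxia genes were past 2-fold lower for 7 of 23, among them Egln3 (364 and 64.2 CPM), Bnip3 (299 and 85.8 CPM) and Slc2a1 (526 and 231 CPM). The list summed to 12664 CPM in control and 7942 CPM with 2FF, also above the others (6110 to 7590). Control monocytes carried more S100a8 and S100a9 (804 CPM against 69.8), and their median depth was 10442 UMIs against 6977.5. The gate markers Chil3, F13a1 and Vcan were detected in 84.2, 86.1 and 81.4% of control monocytes and 59.8, 51.5 and 51.4% with 2FF. Cells with Ly6c2 and without Ace, the classical type, were 32.6% of control monocytes and 40.0% with 2FF, and cells with neither gene 53.5% and 35.4%.

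**Figure D3:**
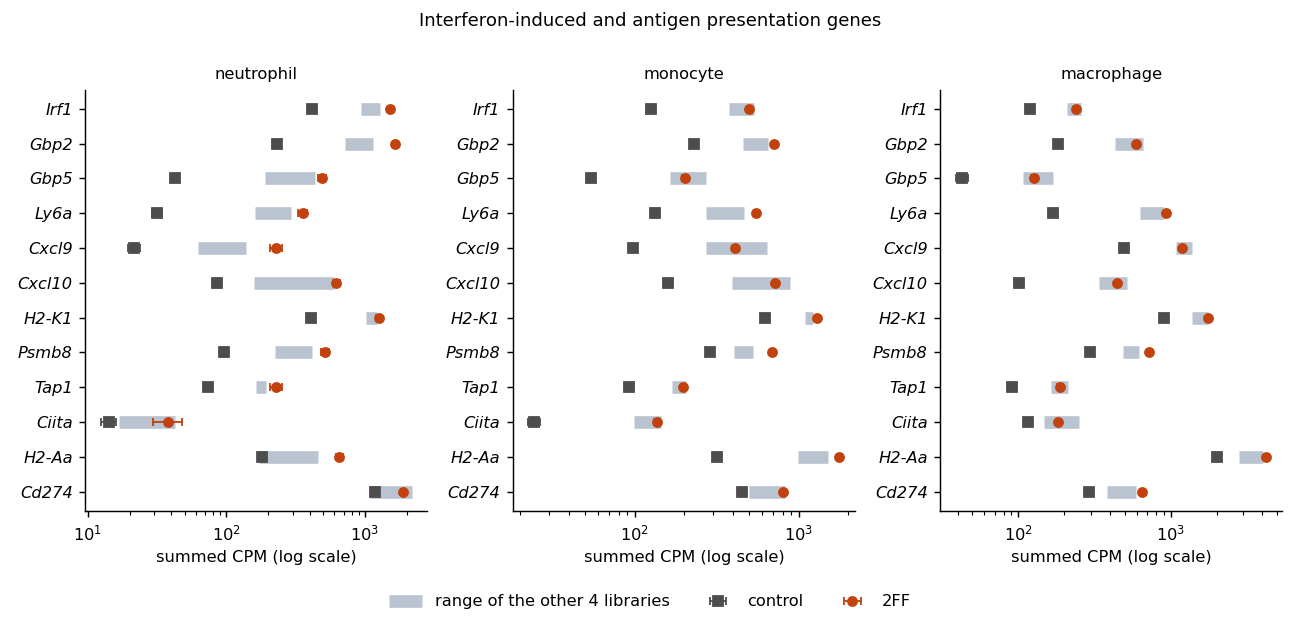
Summed CPM (log axis) of 12 interferon-induced and antigen presentation genes in neutrophils, monocytes and macrophages for control (squares) and 2FF (circles), with exact Poisson intervals, and the range of the other 4 libraries (gray bars). Control is left of 2FF in every row, as for Gbp5 in neutrophils (42.7 and 493 CPM), and 2FF mostly lies in or near the gray bars.

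In macrophages IFN-γ response genes were past 2-fold higher for 12 of 20 and lower for 0 (median 1.20), where 1.6% of 11494 genes were higher and 2.35% lower. Cxcl9 was at 492 CPM in control (479 to 505) and 1191 CPM with 2FF (1174 to 1208), inside the others (1078 to 1377). MHC class I genes were past 2-fold higher for 6 of 17, type I interferon genes for 4 of 24 and MHC class II genes for 3 of 11. Cd274 was at 293 CPM in control (283 to 303) and 650 CPM with 2FF (638 to 663), and Pdcd1lg2, which encodes the second PD-1 ligand PD-L2, at 26.6 and 241 CPM. Both were higher with 2FF than in any other library (383 to 595 CPM for Cd274 and 126 to 148 CPM for Pdcd1lg2). In monocytes and dendritic cells the Cd274 ratios were 0.83 (452 and 806 CPM) and 0.57 (666 and 988 CPM).

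The genes that differed most in macrophages belonged to no single list. Nrg1 (chr8:31814551-32884029), the neuregulin growth factor gene, was at 31.7 CPM in control (28.5 to 35.2) and 480 CPM with 2FF (469 to 491), with the others between 225 and 680. Ifitm1, an interferon-induced membrane protein, was at 169 and 1798 CPM and Ly6i at 8.26 and 109 CPM. Fabp5 (chr3:10012548-10016607) was at 215 and 1820 CPM, above the 692 to 1603 CPM of the others. Vcam1, an adhesion receptor, was at 212 CPM in control and 28.1 CPM with 2FF, and the lipid genes Cd36 and Lpl at 121 and 109 CPM against 26.9 and 27.1 CPM. Fhit (31.9 and 1.45 CPM) and the platelet chemokine Ppbp (55.9 and 5.69 CPM) were also lower. Spp1 (2039 and 1482 CPM, log2 -0.46) and Arg1 (3616 and 4546 CPM, log2 0.33) were not past 2-fold in macrophages, unlike in monocytes; the difference between the classes was not tested. In all, 5 of 24 tumor macrophage genes were lower and 1 higher, the lower ones including Gpnmb, a gate marker.

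Cycling transcripts were lower in macrophages, with 8 of 20 cell cycle genes past 2-fold lower and 0 higher (median -0.94). Mki67 was at 114 CPM in control (108 to 121) and 34.9 CPM with 2FF (32.1 to 38), below the others (43.3 to 53.5), and the topoisomerase gene Top2a at 89.1 and 26.4 CPM. Control was outside the others for 19 of the 20 genes, 2FF for only 3. Summed over the list, control was at 1401 CPM and 2FF at 763 CPM, inside the others (739 to 956). The count of 8 was 2 with 20 CPM added, 5 after thinning, 2 as a mean over cells and 5 after centering on all genes. Heat shock genes were past 2-fold lower for 5 of 12, with Hspa1b at 450 and 64.2 CPM and Hsph1 at 367 and 55.5 CPM. The heat shock list summed to 5770 CPM in control and 4464 CPM with 2FF, inside the others (4052 to 4926). Inflammatory cytokine genes were mixed, 4 of 24 higher and 5 lower: the chemokine Ccl8 was at 141 and 1004 CPM, and Il6 at 48.6 and 11.0 CPM. Glycolysis and hypoxia genes were past 2-fold lower for only 3 of 23 (median 0.06). Monocyte markers summed to 2019 CPM in control macrophages and 1049 CPM with 2FF, the gate marker Pf4 was detected in 66.7% and 28.1% of them, and the part of either in these values was not tested.

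**Figure D4:**
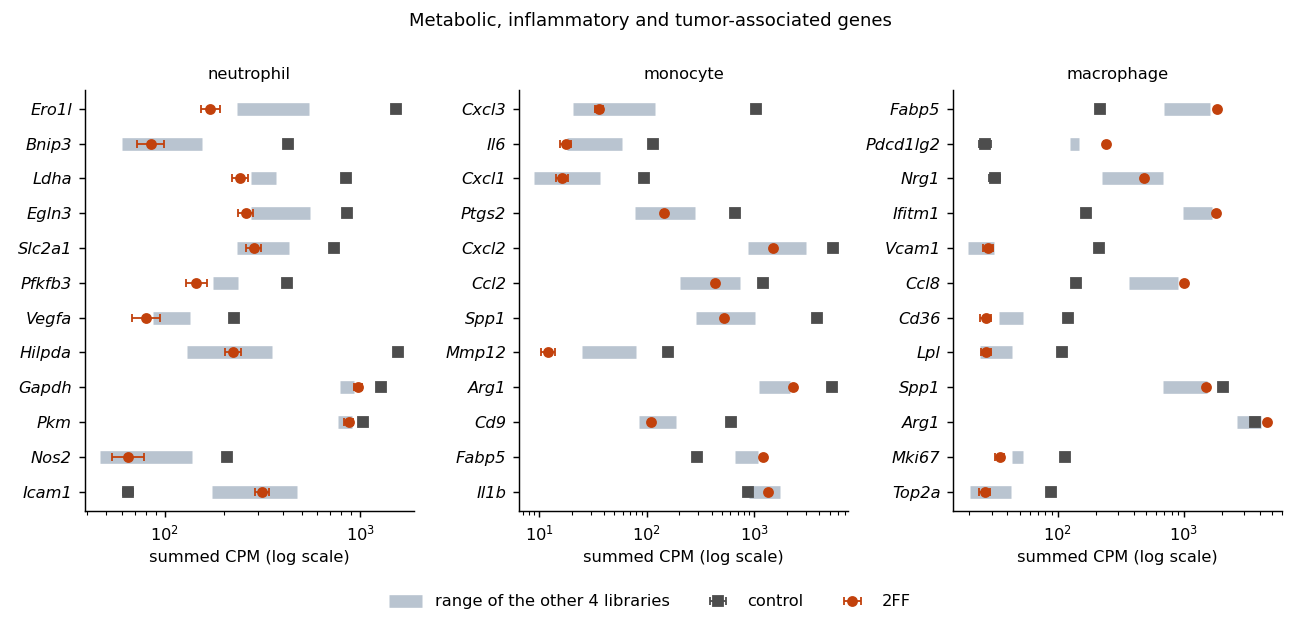
Summed CPM (log axis) of 12 metabolic, inflammatory and tumor-associated genes each in neutrophils, monocytes and macrophages, drawn as for the interferon genes. In neutrophils the hypoxia genes of control lie right of all others (Ero1l 1525 CPM against 171 CPM with 2FF), in monocytes Cxcl3 and Spp1 do so, and in macrophages Fabp5 and Nrg1 lie right with 2FF while Vcam1 and Mki67 lie left.

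Dendritic cells had the lowest shares of genes past 2-fold among the myeloid classes, with 1.11% of 9061 measured genes past 2-fold higher and 2.04% lower. IFN-γ response genes were past 2-fold higher for 2 of 20 and lower for 1 (median 0.55), MHC class I genes for 0 of 17 (0.46) and MHC class II genes for 0 of 11 (0.18). Cxcl9 was at 338 and 364 CPM, with a log2 ratio of 0.11. Of 23 dendritic maturation genes, 0 were past 2-fold higher and 1 lower (median log2 0.12). With so few genes these counts are near the shares over all genes. The lower gene was Ccl17, a chemokine for CCR4-bearing T cells such as regulatory T cells, at 875 CPM in control (846 to 905) and 354 CPM with 2FF (335 to 375), inside the others (218 to 680). The costimulatory genes Cd80 (318 and 412 CPM) and Cd86 (705 and 824 CPM) were not past 2-fold. The list of 23 also holds Ccr7 and Fscn1, which are markers of the dendritic gate. Pdcd1lg2 was at 182 and 348 CPM (log2 0.91), again above all others (220 to 268).

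Cyp7b1 (chr3:18071950-18243338), an oxysterol hydroxylase gene, led the higher side with 49.3 CPM in control and 420 CPM with 2FF, from 25 and 79 cells. Abca13, Cd209d, Chl1 and Serpinb1a followed, of which Abca13 and Chl1 had 3 and 1 control UMIs, with ratios of 51.2 (17.1 to 251) and 95.1 (16.6 to 3801). With 2FF, Abca13 and Chl1 were detected in 17 and 13 cells, and their intervals do not cover the spread between cells. Serpinb1a, a neutrophil protease inhibitor, was at 9.15 and 71.6 CPM. Lower were Hsph1 (709 and 133 CPM), Hspa1b (682 and 130 CPM), Trabd2b, Airn and Arrdc3, and 5 of 11 heat shock genes. The heat shock list summed to 7476 CPM in control and 5281 CPM with 2FF, inside the other libraries (4847 to 5561). Airn is transcribed antisense to Igf2r, and the strand setting of the counts was not given in the sources used here. Inflammatory cytokine genes were past 2-fold lower for 8 of 18, all 8 under 20% of their level in another class of the same library, such as Cxcl2 (492 and 96.4 CPM). By subset, type 1 cells were 31.1% and 24.8%, type 2 cells 17.9% and 16.2% and mature cells 31.8% and 30.6%, with overlapping intervals for each. Cells with markers of several subsets or none were 19.3% (14.8 to 24.4) in control and 28.3% (23.4 to 33.7) with 2FF.

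**Figure D5:**
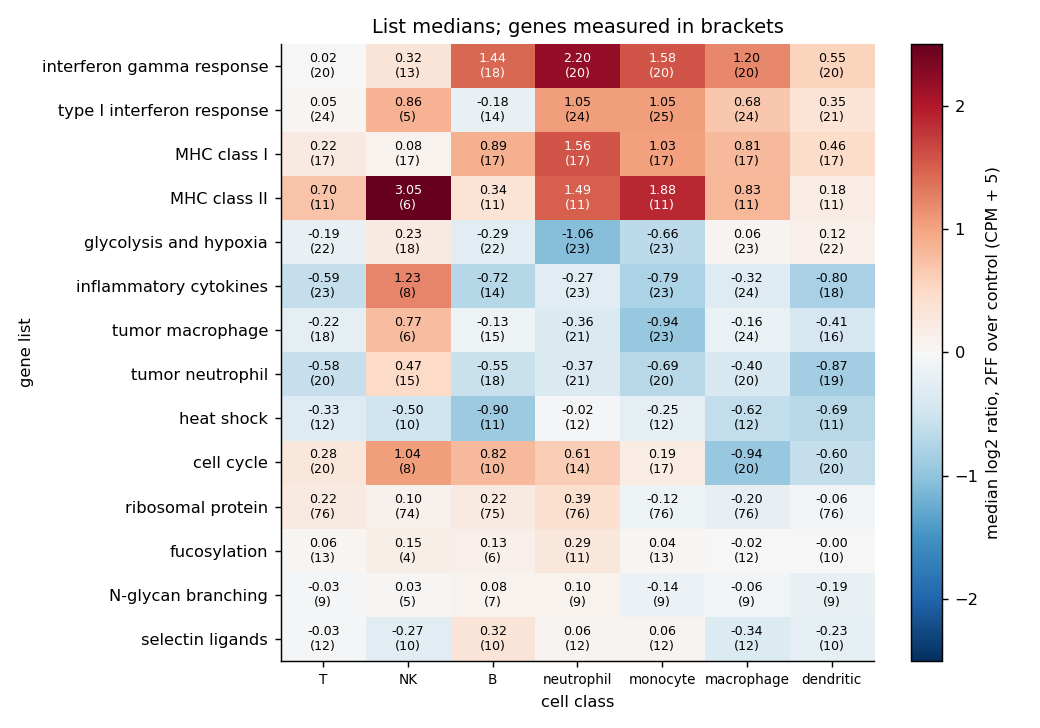
Median log2 ratio of CPM + 5 (2FF over control, color scale) for 14 gene lists in the 7 classes, with the number of measured genes in brackets. IFN-γ response medians run from 0.02 in T cells to 2.20 in neutrophils, the NK column rests on 26 control cells, and the fucosylation row stays between -0.02 and 0.29.

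The genes that make and place fucose showed little difference. Of the 20 listed fucosylation genes, 4 to 13 were measured in a class and 0 were past 2-fold in any of the 7 classes. Their medians ran from -0.02 to 0.29. Over all genes measured in a class, 1.06 to 7.17% were past 2-fold higher and 2.04 to 4.5% lower. With so few listed genes a count of 0 is near those shares. Fut8, the core fucosyltransferase gene, was at 136 CPM in control T cells (124 to 149) and 177 CPM with 2FF (172 to 183), above the 148 to 152 CPM of the others. In NK cells it was at 190 and 151 CPM, in B cells at 133 and 157 CPM, in neutrophils at 81.6 and 62.2 CPM, in monocytes at 43.9 and 54.5 CPM, in macrophages at 55.6 and 58.9 CPM and in dendritic cells at 96.5 and 88.8 CPM. Its largest ratio was in regulatory T cells (82.1 CPM, 63.0 to 105, and 174 CPM, 147 to 204; log2 1.04), outside the 111 to 131 CPM of the others on either side. Gmds, the first enzyme of GDP-fucose synthesis, was at 224 and 203 CPM in T cells and 86.2 and 88.6 CPM in macrophages, and Slc35c1, the GDP-fucose transporter gene, at 10.1 and 9.49 CPM in macrophages.

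Lewis-type fucosyltransferases were near the detection limit. Fut4 reached the UMI minimum in monocytes (3.87 and 3.54 CPM), macrophages (4.04 and 2.53 CPM) and dendritic cells (9.15 and 11.6 CPM). Fut7 was at 1.49 and 3.58 CPM in T cells, and Fut9 had 0 UMIs in every class of both libraries. N-glycan branching genes were past 2-fold for 0 of the genes measured in each class, which is also near the shares over all genes. Mgat5, which builds the branched N-glycans that galectins bind, was at 274 and 226 CPM in T cells, 696 and 734 CPM in NK cells, 198 and 197 CPM in monocytes and 282 and 257 CPM in macrophages, and Mgat3 did not reach the UMI minimum in any of the 7 classes. Among selectin ligand genes, monocytes had 2 of 12 higher and 2 lower. St3gal4, a sialyltransferase that helps to make such ligands, was at 126 and 297 CPM there and Gcnt1, which starts core-2 O-glycans, at 59.8 and 17.2 CPM. In neutrophils 2 of 12 were past 2-fold higher and 0 lower, while Selplg, the P-selectin ligand carrier, was level there (207 and 271 CPM, log2 0.38). In T cells and in macrophages 1 of 12 was lower, and in B cells 1 of 10 was higher. Dendritic cells had 1 of 10 higher and 1 lower, and NK cells 0 of 10 past 2-fold. Transcript levels say nothing of the fucose content of the cells, which was not measured in these libraries.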

How the data were processed

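One droplet 3′ library (10x chemistry 3.1) was made per mouse. The deposited files hold raw UMI counts per gene and barcode, which the authors made with Cell Ranger against mm10, without pooling or normalization. The matrix headers and the methods give version 7.0.0, the labels' tool list 3.1.0. The strand setting was not given in the sources used here. The methods give 1000000 injected cells, 300 µM 2FF for the pretreatment, 17.5 mg/kg by gavage, and filters of 250 genes and 5% mitochondrial UMIs, which were applied here. No doublet caller was run. Cells with at least 2 markers of an unrelated class, or of tumor epithelial cells, were counted as mixed and left out in an alternative. T and NK cells counted as related, as did B and dendritic cells, and neutrophils, monocytes, macrophages and dendritic cells. Mixtures of related classes were therefore neither counted nor left out.

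Cells entered a class with at least 3 of its markers detected and a lead of 1 over the next class, and UMIs were summed per class and library (Python 3.11.15, numpy 2.4.6, scipy 1.17.1, pandas 2.3.3). Ratios are log2 of CPM + 5 for genes with at least 50 UMIs over both libraries. A gene reaches this minimum more easily through the library with more UMIs in the class, which can tilt the shares past 2-fold. Shares carry exact Clopper-Pearson intervals, their differences Newcombe intervals, CPM exact Poisson intervals and ratios of counts exact conditional intervals, all covering counting error only. With 1 library per group no test was run. The scripts were checked on simulated data.

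In each class the 5 highest and 5 lowest log2 ratios were named, among genes detected in at least 2% of the cells of the library where the gene is higher. Left out were gate markers, antigen receptor and immunoglobulin genes, haemoglobin genes, those of mitochondria and ribosomal proteins, Xist, and genes under 20% of their level in another class of the library. To these were added members of 23 gene lists, the glycan enzymes Fut4, Fut8, Fut9, Mgat5 and Mgat3, and Ifng, Pdcd1 and Cd274. The comparison and the lists were chosen with earlier results of these data known, the gate limits after gate counts were seen, and the 3 monocyte subset alternatives after the values were seen. Counts of near-identical genes (Hspa1a and Hspa1b, Ly6a and Ly6i, the Gbp, H2, Klra, Ifit and histone families) are uncertain, since shared reads may be lost or split.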

Additional observations from a re-analysis of the deposited data

Results flagged for a closer look

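Among cells outside the 7 classes, the plasma cell gate held 20 of 9222 cells with 2FF (0.217%, interval 0.133 to 0.335) and 4 of 9075 in control (0.0441%, 0.0120 to 0.113), and 4 to 12 cells in each of the other 4 libraries. The gate for epithelial cells of the tumor held 18 of 9222 cells with 2FF (0.195%, 0.116 to 0.308) and 0 of 9075 in control, where a limit of 3 counts allows a share of up to 0.0331% and the exact interval one of up to 0.0406%, and 2 to 12 cells in the others. Both gates were flagged because the lower limit with 2FF was above the upper limit of control, so lying above control was the rule of selection. A gate lower with 2FF could not be flagged. The class comparisons do not use these cells. With 1 library per group neither difference was tested.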

How the results depend on the processing

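Class shares, counts of genes past 2-fold, list medians of the 7 classes, some list counts and the 70 named gene and class pairs were recomputed, as far as each setting applies, under a stricter gate, thinning to 2000 UMIs per cell, other denominators, without mixed cells, with 1 or 20 CPM added, with at least 200 UMIs, as a mean over cells, and after centering on the median of all genes. The T cell difference was 37.6 points with the stricter gate, 36.5 thinned, 29.1 over all cells that passed the filters, 31.4 without neutrophils in the denominator and 30.2 without mixed cells. For B cells it was 3.67 thinned and 2.54 without neutrophils. For neutrophils it was -37.3 with the stricter gate, -39.0 thinned and -28.7 over all cells. For monocytes it was -11.5 with the stricter gate and -11.5 thinned, -7.15 over all cells, -32.9 without neutrophils and -8.50 without mixed cells. For macrophages it was 8.52 thinned and 8.57 without mixed cells, and turned to -0.637 without neutrophils, where a large class leaves the denominator. For dendritic cells it was -2.20 without neutrophils.

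Summed over the 7 classes, 2151 gene and class pairs were past 2-fold higher and 1664 lower, where a gene counts once per class. Within a class, 1.06 to 7.17% of measured genes were higher and 2.04 to 4.5% lower. With 1 CPM added, where low genes weigh more, the pairs numbered 3677 and 2963. With 20 CPM added they numbered 909 and 747, and with at least 200 UMIs 1328 pairs were higher. IFN-γ response genes higher in B cells numbered 11, and 4 with at least 200 UMIs, 4 thinned, 7 as a mean over cells and 6 without mixed cells. A higher UMI minimum and thinning also leave fewer genes measured. Cell cycle genes lower in macrophages numbered 8, and 2 with 20 CPM added, 5 thinned, 2 as a mean over cells and 5 centered; the cause was not tested. In neutrophils, whose median over all genes was 0.20, centering gave 359 genes higher and 669 lower in place of 636 and 441. Of the 70 named gene and class pairs, 69 stayed past 2-fold in every alternative that tested them, the exception being Gm26802 in T cells. Of 57 list medians at least 0.5 from 0, 49 kept their sign in every alternative.

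No paired analysis was possible because each group holds 1 library, and leaving out a replicate was not possible either. T cell subsets and list genes outside the named pairs were not recomputed. Depth limits NK cells (26 in control), B cells (90) and regulatory T cells (89) most.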

Other observations

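Plasmacytoid dendritic cells, the main makers of type I interferon, were 12 of 9222 cells with 2FF and 4 of 9075 in control, against 10 to 37 cells in the other 4 libraries. Mast cells or basophils were 3 and 2 cells, fibroblasts 1 and 0, and endothelial cells 0 in both. Ribosomal protein genes were past 2-fold for 0 of the genes measured in each of the 7 classes, and dissociation-induced genes for 0 of 17 in monocytes, macrophages and B cells. In the other classes 1 of 17 was past 2-fold higher in T cells, 2 of 15 were higher in NK cells, 2 of 17 higher and 1 lower in neutrophils, and 2 of 17 lower in dendritic cells. Over all genes measured in a class, 1.06 to 7.17% were past 2-fold higher and 2.04 to 4.5% lower.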
